A study of Saccharomyces cerevisiae BY4741 with 40 samples.

Results

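Transcription start sites were mapped in *upf1∆set2∆* and *set2∆* cells of *Saccharomyces cerevisiae*, so that the effect of losing Upf1 could be read in cells that already lacked Set2. The comparison rests on 6 of the 40 libraries of the series, 3 from *upf1∆set2∆* and 3 from *set2∆* cells, and covers all 21707 transcription start site clusters (TSSCs) of the *SET2* experiment. All strains derive from BY4741 (Mat a, deleted for *HIS3*, *URA3*, *LEU2* and *MET15*) and lack *CAN1*. The *upf1∆set2∆* strain carries *upf1∆*::HIS3MX6 and *set2∆*::KANMX6, and the *set2∆* strains carry *set2∆*::KANMX6 alone. The 3 *upf1∆set2∆* libraries came from 1 strain, while the *set2∆* libraries came from 2 strains, one used for 1 library and the other for 2. Cells were in mid-exponential growth in rich glucose medium at a constant temperature. The same experiment included *upf1∆* cells (*upf1∆*::HIS3MX6) and wild-type (WT) cells, with 3 libraries each, which gave the effect of Upf1 loss where Set2 is present.

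Nonsense-mediated mRNA decay (NMD) degrades RNAs on which ribosomes terminate too early, and Upf1, an RNA helicase encoded by *NAM7*, is its central factor. A ribosome usually starts at the first ATG after the cap, so an ATG upstream of the coding sequence, or one out of frame with it, can bring it to an early stop codon, and a long stretch of RNA after that stop codon is known to favour decay. Set2 methylates lysine 36 of histone H3 behind elongating RNA polymerase II, and this mark, through the Rpd3S deacetylase, keeps promoters inside genes silent.

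The 5′-ends of capped poly(A)+ RNAs were ligated to an oligonucleotide and sequenced, and neighbouring ends were joined into TSSCs by the authors. For each TSSC the deposited table gave every genotype 1 value, which stands for its 3 libraries together and is in normalized reads rounded to a whole number. Because the spread between libraries is not part of these values, no difference between *upf1∆set2∆* and *set2∆* cells was tested, and the *upf1∆set2∆* strain cannot be told apart from its genotype. The log2 ratio of *upf1∆set2∆* over *set2∆* was taken after adding 1 to both values, and a TSSC was called higher or lower where this ratio lay beyond 2-fold. A TSSC entered the table when a single sample held enough reads, and TSSCs were filtered on control libraries of *upf1∆set2∆* cells, so a start found mainly in *upf1∆set2∆* cells could enter only through the genotype in which it is high, and shares of higher TSSCs in low classes include such starts. TSSCs are named by class: mRNA, cryptic unstable transcripts (CUTs, which the nuclear exosome degrades), Xrn1-sensitive unstable transcripts (XUTs), stable unannotated transcripts (SUTs), intergenic, A (inside a gene, antisense) and B (inside a gene, sense). The TSSCs on stable noncoding RNAs and repeats are counted in the totals only. The sum of all values was 4275195 in *upf1∆set2∆* and 4431877 in *set2∆* cells. A value of 0 was listed for 0.875% of the TSSCs in *upf1∆set2∆* and for 9.78% in *set2∆* cells.

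The size of a log2 ratio that separate libraries can give by themselves was gauged from *upf1∆* over WT, which the *SET2* and *RRP6* experiments both measured. Among 12492 pairs of overlapping TSSCs of equal class, the SD of 1 such ratio was 0.30. It was 0.54 where the mean value was under 3, 0.43 from 3 to 10, 0.26 from 10 to 30, 0.18 from 30 to 100, and 0.12 at 100 or more. The 2 ratios of a pair lay more than 1 apart on the log2 scale in 12.0% of the pairs with a mean value under 3 and in 0.163% of those at 100 or more, so low TSSCs are the least certain. This gauge comes from cells with Set2, and its size in *set2∆* cells was not tested. It covers only TSSCs with a partner in the *RRP6* experiment, which most A- and B-TSSCs lack. The pairs were 5592 of mRNA-TSSCs (SD 0.19), 2058 of the 7620 B-TSSCs (0.37) and 779 of the 2505 A-TSSCs (0.44).

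The deleted genes could be checked only in part. The mRNA-TSSC of *SET2* (YJL168C), at chrX:104482-104537, lies 54 nt upstream of the open reading frame (ORF) and had 13 in *upf1∆set2∆* and 6 in *set2∆* cells, against 26 in *upf1∆* and 40 in WT cells. A second TSSC at chrX:102054-102081, past the end of the ORF, had 55 in *upf1∆set2∆* and 7 in *set2∆* cells, against 1 in *upf1∆* and 0 in WT cells. The mRNA-TSSC of *NAM7* (YMR080C), at chrXIII:429694-429773, lies 67 nt upstream of the ORF and had 101 in *upf1∆set2∆* and 110 in *set2∆* cells, and 165 in *upf1∆* and 111 in WT cells. Since both mRNA starts lie outside the coding sequence, these values do not show whether it was removed.

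The first ORF that a ribosome would meet after some of these TSSCs is shown here, because the response to Upf1 loss differed with its frame and with what follows its stop codon. Each is read 5′ to 3′ from the S288C R64 reference, starting at the first ATG at or after the downstream end of the TSSC, for at most 30 nt. The capitals mark the ATG and, where the whole ORF fits, its stop codon. The first 3 follow an XUT and a pair of SUTs with some of the largest ratios of their classes, the next 5 follow internal starts of *OM45*, *YMR114C*, *FLO8* and *RAD4* whose first ATG is out of frame with the gene, and the last 3 follow internal starts of *STE11*, *OM45* and *HUT1* whose first ATG is in frame.
XUT_15R-219, chrXV:448244-448273, minus strand: ATGataagattatcaccgttttcaaaccca
SUT464, chrIV:434021-434032, minus strand: ATGgaaataTAG
SUT023, chrII:785522-785551, plus strand: ATGagttgcggaaaattcgtcaatagaata
OM45, chrIX:94067-94093, plus strand: ATGagaaggagctcttgtccacggTGA
YMR114C, chrXIII:496522-496533, minus strand: ATGatggatTAA
FLO8, chrV:375868-375888, minus strand: ATGgacccaagcgagcagTAA
FLO8, chrV:376276-376299, minus strand: ATGgagcatcaccttccgcttTAG
RAD4, chrV:501457-501480, minus strand: ATGgaaaagttgggaaggtttTGA
STE11, chrXII:851735-851764, plus strand: ATGtcaccagaggtggtcaaacagaccgct
OM45, chrIX:94582-94611, plus strand: ATGgactcgttatctaaggcgaaggaggac
HUT1, chrXVI:87356-87385, minus strand: ATGtttacactgaacctcttcgtgatattg

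Pervasive and internal starts were higher in *upf1∆set2∆* than in *set2∆* cells far more often than mRNA starts were. Of all 21707 TSSCs, 8004 were higher in *upf1∆set2∆* than in *set2∆* cells (36.9%) and 165 were lower (0.76%). With the pseudocount of 1, A-TSSCs were higher in 1539 of 2505 cases (61.4%, 95% Wilson CI 59.5 to 63.3), XUT-TSSCs in 973 of 1666 (58.4%, 56.0 to 60.7) and SUT-TSSCs in 210 of 386 (54.4%, 49.4 to 59.3). Higher values were also listed for 1090 of 2377 intergenic TSSCs (45.9%, 43.9 to 47.9), 3095 of 7620 B-TSSCs (40.6%, 39.5 to 41.7) and 306 of 839 CUT-TSSCs (36.5%, 33.3 to 39.8), against 763 of 5989 mRNA-TSSCs (12.7%, 11.9 to 13.6). These intervals treat TSSCs as independent, although some share a gene, and library-to-library spread is not in them. The interval of XUT-TSSCs overlapped those of A- and SUT-TSSCs, whereas that of mRNA-TSSCs lay below all the others.

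The median log2 ratio was 1.46 for A-, 1.32 for XUT-, 1.22 for SUT-, 1.00 for intergenic, 0.89 for B- and 0.58 for CUT-TSSCs, and 0.04 for mRNA-TSSCs. Lower TSSCs were rare in each class, from none of the SUT-TSSCs to 63 B-TSSCs, and 46 mRNA-TSSCs (0.768%) were lower. More than 4-fold higher values were found for 416 XUT-TSSCs (25.0%) and 553 A-TSSCs (22.1%), against 224 mRNA-TSSCs (3.74%). With a pseudocount of 5 the share of higher TSSCs was 40.5% for XUT-, 36.5% for SUT-, 29.7% for A-, 24.2% for intergenic, 22.7% for B-, 20.9% for CUT- and 9.77% for mRNA-TSSCs, and 21.3% over all, so A-TSSCs then stood below XUT- and SUT-TSSCs. Values of internal starts were low: the median A-TSSC had 6 in *upf1∆set2∆* and 2 in *set2∆* cells, and the median B-TSSC 10 in *upf1∆set2∆* and 5 in *set2∆* cells.

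**Figure D1:**
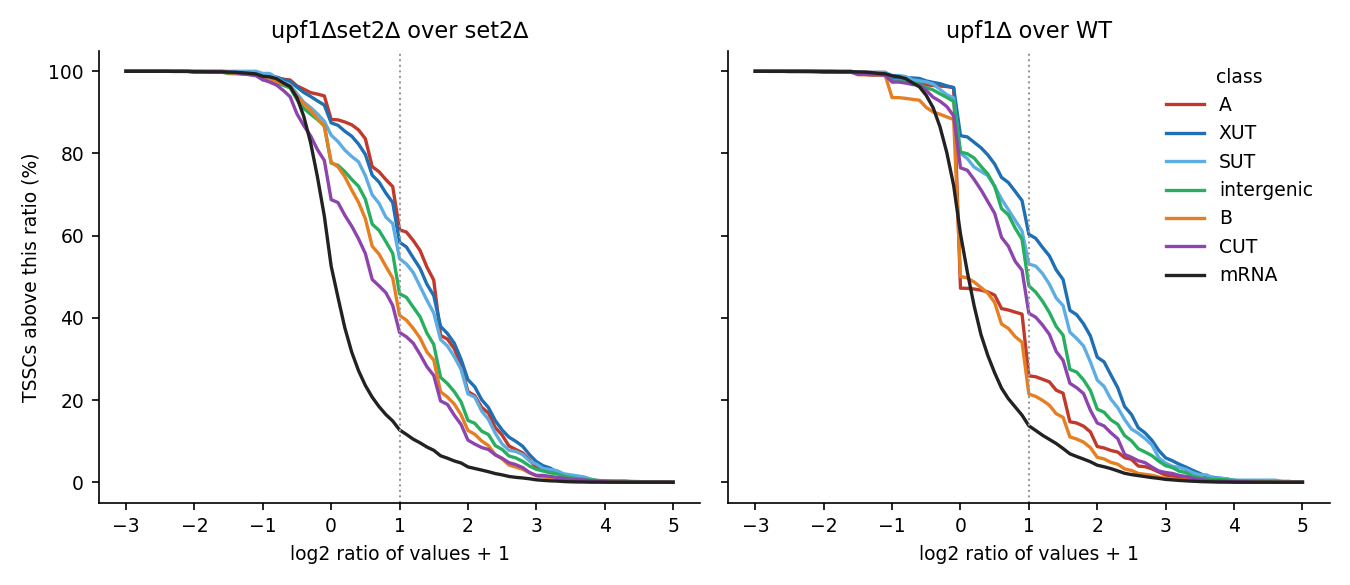
Share of TSSCs (y axis, %) whose log2 ratio exceeds the value on the x axis, by class, for *upf1∆set2∆* over *set2∆* (left) and *upf1∆* over WT (right), with the dotted line at 2-fold. At 2-fold the A curve stands at 61.4% on the left and at 25.9% on the right, while the mRNA curve stands at 12.7% on the left and 13.7% on the right.

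As reads rather than as numbers of TSSCs, mRNA starts held 87.7% of all values in *upf1∆set2∆* and 93.2% in *set2∆* cells. B-TSSCs held 5.74% in *upf1∆set2∆* and 3.18% in *set2∆* cells, XUT-TSSCs 1.81% in *upf1∆set2∆* and 0.688% in *set2∆* cells, and A-TSSCs 0.932% in *upf1∆set2∆* and 0.294% in *set2∆* cells. The summed value of the A-TSSCs was 39856 in *upf1∆set2∆* and 13030 in *set2∆* cells, a ratio of 3.06. For XUT-TSSCs the sums were 77436 in *upf1∆set2∆* and 30496 in *set2∆* cells (ratio 2.54), for SUT-TSSCs 22043 in *upf1∆set2∆* and 9698 in *set2∆* cells (2.27), for B-TSSCs 245565 in *upf1∆set2∆* and 140792 in *set2∆* cells (1.74), for CUT-TSSCs 37384 in *upf1∆set2∆* and 24373 in *set2∆* cells (1.53) and for intergenic TSSCs 88201 in *upf1∆set2∆* and 68037 in *set2∆* cells (1.30). The mRNA-TSSCs summed to 3750272 in *upf1∆set2∆* and 4130511 in *set2∆* cells (0.908). This sum was slightly smaller in *upf1∆set2∆* cells even though far more mRNA-TSSCs were higher than lower. In cells with Set2 it went the other way, with 4268196 in *upf1∆* and 3750505 in WT cells (1.14). The authors normalized values to reads starting just upstream of ORFs, and how far these sums depend on that was not tested.

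The same deletion of *UPF1* was then read in cells with Set2, from *upf1∆* and WT libraries that the *set2∆* comparison does not use. There 26.9% of TSSCs were higher in *upf1∆* than in WT cells. The shares were near those of the *set2∆* background for mRNA-TSSCs (13.7% for *upf1∆* over WT), XUT-TSSCs (60.3%), SUT-TSSCs (53.1%), intergenic TSSCs (47.8%) and CUT-TSSCs (41.1%). In contrast, 25.9% of A-TSSCs and 21.5% of B-TSSCs were higher in *upf1∆* cells, each well under the share in the *set2∆* background. The log2 ratio was larger by over 1 in the *set2∆* background for 927 A-TSSCs (37.0%) and 1875 B-TSSCs (24.6%), and smaller by over 1 for 133 (5.31%) and 486 (6.38%). For mRNA-TSSCs these counts were 116 (1.94%) and 144 (2.40%). The difference between the backgrounds was not tested.

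Many internal starts had little or no signal where Set2 was present. A-TSSCs were listed at 0 in 46.6% of cases in *upf1∆* and 66.5% in WT cells, and B-TSSCs in 34.5% in *upf1∆* and 43.2% in WT cells, and TSSCs at 0 in both give a log2 ratio of 0 by construction. The ratio of summed values, which needs no pseudocount, was 3.25 for A- and 1.78 for B-TSSCs in *upf1∆* over WT, against 3.06 and 1.74 without Set2. In the other classes this ratio was smaller without Set2 by a wider margin. It was 3.15 with and 2.54 without Set2 for XUT-, 2.86 and 2.27 for SUT-, and 1.96 and 1.53 for CUT-TSSCs. Intergenic TSSCs had 1.64 with and 1.30 without Set2, and mRNA-TSSCs 1.14 and 0.908. Whether A- and B-TSSCs differ from the rest in this was not tested. Across TSSCs of a class, which share libraries and depth, Pearson's r and Spearman's rho between the ratios of the 2 backgrounds were 0.79 and 0.62 for the 5989 mRNA-TSSCs and 0.65 and 0.65 for the 1666 XUT-TSSCs. They were 0.30 and 0.25 for the 2505 A-TSSCs and 0.35 and 0.30 for the 7620 B-TSSCs. Of the 3095 B-TSSCs that were higher in *upf1∆set2∆* cells, 1102 were also higher in *upf1∆* cells.

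Part of the internal starts belong to the set that exists without any *set2* deletion. A TSSC of the *RRP6* experiment, whose strains all carry *SET2*, overlapped 835 of the A-TSSCs and 2140 of the B-TSSCs. Of the A-TSSCs with such an overlap, 55.0% were higher in *upf1∆set2∆* than in *set2∆* cells and 55.9% in *upf1∆* than in WT cells. Of the 1670 without, 64.7% were higher in *upf1∆set2∆* cells and 10.9% in *upf1∆* cells. For B-TSSCs with an overlap the shares were 43.8% in *upf1∆set2∆* over *set2∆* and 47.0% in *upf1∆* over WT, and for the 5480 without one 39.4% in *upf1∆set2∆* over *set2∆* and 11.5% in *upf1∆* over WT. The values of TSSCs without an overlap were low, with a median of 6 in *upf1∆set2∆* and 1 in *set2∆* cells for A-, and 7 in *upf1∆set2∆* and 3 in *set2∆* cells for B-TSSCs. Both the A- and the B-TSSCs without an overlap had a median of 0 in WT cells, so many of them could be in the table only through a *set2∆* genotype, and their shares are no independent sign of a larger response. A TSSC could likewise enter the *RRP6* experiment through its cells without Upf1 alone, so the shares of TSSCs with an overlap are not independent of Upf1 loss either.

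The B-TSSCs were then split by the frame of the first ATG downstream. For 4666 of them this ATG was out of frame with the gene, and the ORF it opens had a median of 11 codons before its stop codon. For 1911 the first ATG was in frame, which leaves a shortened version of the gene's own product. Of the out-of-frame group, 2378 were higher in *upf1∆set2∆* than in *set2∆* cells (51.0%, median log2 ratio 1.09) and 21 were lower. Of the in-frame group, 15.1% were higher (95% CI 13.5 to 16.7, median 0.30) and 31 were lower, so the share was much nearer to that of mRNA-TSSCs. In *upf1∆* over WT 24.0% of the out-of-frame and 11.4% of the in-frame B-TSSCs were higher. By the mean of *upf1∆set2∆* and *set2∆*, which the ratio itself also uses, the shares were as follows: 37.6% out of frame and 10.2% in frame under 3, 55.9% and 13.5% from 3 to 10, 59.3% and 15.4% from 10 to 30, and 51.2% and 22.5% at 30 or more. Smaller groups were the 107 B-TSSCs with no ATG left before the end of the ORF (15.0% higher), the 309 past the ORF's end (35.9%), the 265 in genes with an intron (40.0%), the 361 with no single coding ORF in the table (54.0%) and 1 before the ORF.

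The share of higher out-of-frame starts also differed with position along the gene. With each ORF cut into 5 equal parts from its start codon, 54.4%, 58.1%, 58.8% and 54.6% of the out-of-frame B-TSSCs of the first 4 parts were higher in *upf1∆set2∆* cells, and 31.2% of the last part. The in-frame B-TSSCs stayed between 11.1% and 16.6% in all 5 parts. In *upf1∆* over WT the out-of-frame share was 51.1% in the first part and smaller in each next one, down to 12.9% in the last. The shares of the backgrounds thus lay near each other by the start codon and far apart in the middle. The median out-of-frame B-TSSC had 4 in *upf1∆* and 1 in WT cells in the first part, but 1 and 0 in the middle one. Values of 1 and 0 cannot pass 2-fold with a pseudocount of 1. Whether the effect of Upf1 loss changes with position was not tested. Among A-TSSCs, 49.8% were higher in the first part of the sense ORF, 67.8% in the middle one and 61.8% in the last. In *upf1∆* over WT the A-TSSC shares were 39.8%, 17.9% and 26.6% in these 3 parts, and the median A-TSSC of the middle part had 0 in both *upf1∆* and WT cells.

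**Figure D2:**
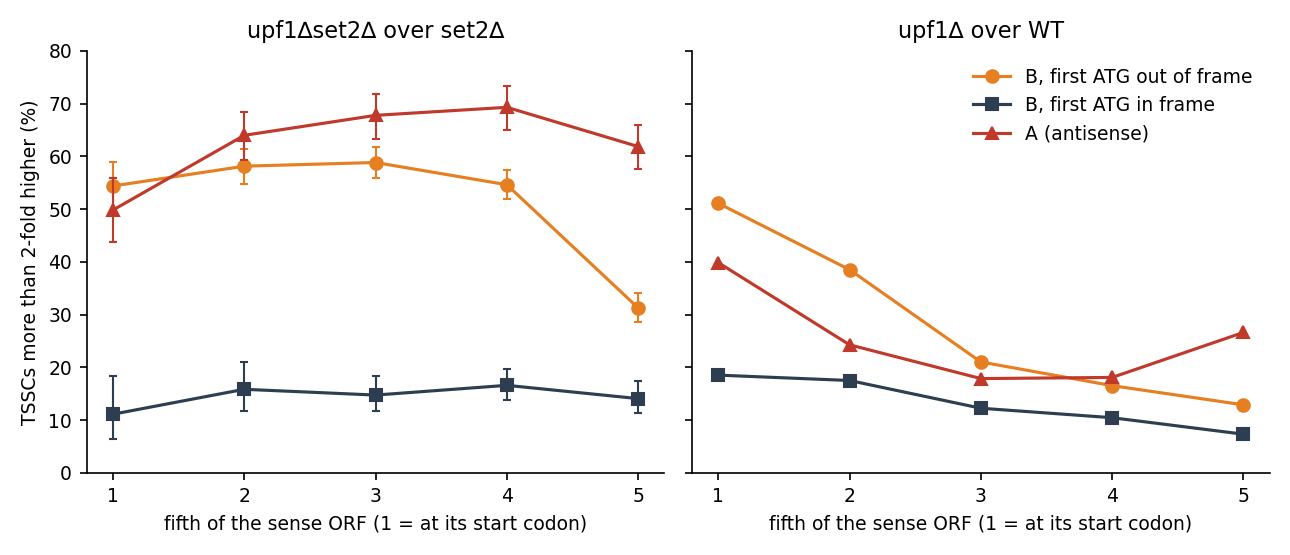
Share of internal TSSCs more than 2-fold higher (y axis, %) by position in the sense ORF, cut into 5 equal parts (x axis), for *upf1∆set2∆* over *set2∆* (left, bars are 95% Wilson intervals over TSSCs) and *upf1∆* over WT (right). On the left the out-of-frame B-TSSCs stand between 54.4% and 58.8% in the first 4 parts and at 31.2% in the last, and the in-frame ones never exceed 16.6%.

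Starts whose first ORF stops far from the annotated transcript end were higher more often than those where it stops close by. A B-TSSC late in its ORF leaves little RNA after it. For B-TSSCs this length and the position given above therefore go together and were not told apart. For out-of-frame B-TSSCs, 10.4% of the 144 with under 100 nt after the stop codon were higher in *upf1∆set2∆* cells, then 12.4% from 100 to under 200 nt, 32.7% to under 400, 52.9% to under 800, 63.9% to under 1600 and 64.7% of the 655 with 1600 nt or more. The median value also differed along these groups, with 8 in *upf1∆set2∆* and 2 in *set2∆* cells in the last group and 12 in *upf1∆set2∆* and 12 in *set2∆* cells in the first. XUT- and SUT-TSSCs together gave 37.2% of 145 under 100 nt, 36.6%, 47.6%, 62.9% and 73.0% in the steps between, and 75.4% at 1600 nt or more. Across TSSCs, Spearman's rho between this length and the log2 ratio was 0.35 for 1970 XUT- and SUT-TSSCs and 0.37 for 4631 out-of-frame B-TSSCs, as a description over TSSCs that can share a transcript. The length of the first ORF itself made less difference: the XUT and SUT share was between 51.0% for ORFs of 41 codons or more and 63.2% for 11 to 20 codons, and the out-of-frame B share was between 40.4% and 53.4%.

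**Figure D3:**
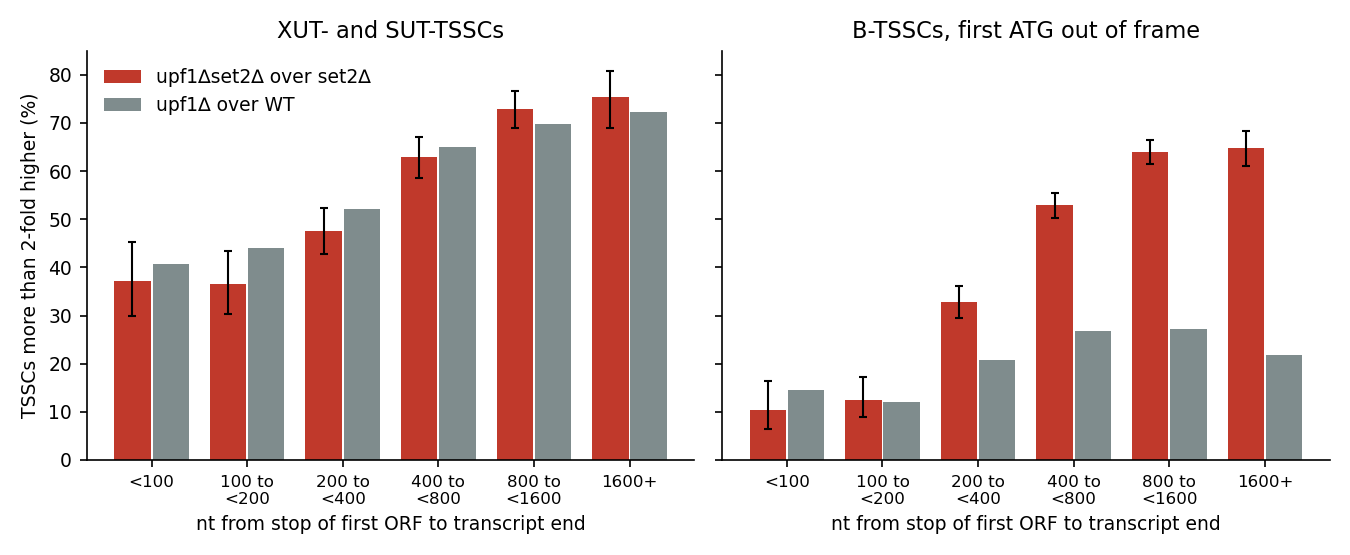
Share of TSSCs more than 2-fold higher (y axis, %) by the nt between the first ORF's stop codon and the transcript end (x axis), for XUT- and SUT-TSSCs (left) and out-of-frame B-TSSCs (right), in *upf1∆set2∆* over *set2∆* (red, with 95% Wilson intervals over TSSCs) and *upf1∆* over WT (grey). The red bars climb to 75.4% on the left and 64.7% on the right, and the grey bars of the right panel stay at or below 27.1%. In the right panel's groups from 800 nt up, the median was 1 in *upf1∆* and 0 in WT cells. Such values cannot pass 2-fold with a pseudocount of 1.

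Individual genes showed how widely internal starts of 1 gene can differ. *OM45* (YIL136W) encodes a protein of the mitochondrial outer membrane. Its strongest responder, a B-TSSC at chrIX:93862-94003, had 224 in *upf1∆set2∆* and 42 in *set2∆* cells (log2 ratio 2.39), and its first ORF is the 8-codon one shown above. The next B-TSSC, at chrIX:94057-94145, had 59 in *upf1∆set2∆* and 30 in *set2∆* cells (0.95), and that at chrIX:94212-94280 had 29 in *upf1∆set2∆* and 8 in *set2∆* cells (1.74). An in-frame start farther down, at chrIX:94378-94582, had 152 in *upf1∆set2∆* and 76 in *set2∆* cells (0.99). The mRNA start itself had 495 in *upf1∆set2∆* and 387 in *set2∆* cells (0.35), less than any of these 4. With Set2 present the strongest responder had 179 in *upf1∆* and 36 in WT cells (2.28).

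*YMR114C*, a gene of unknown function, had the most abundant internal start of those named here. The B-TSSC at chrXIII:496546-496630 had 2206 in *upf1∆set2∆* and 1012 in *set2∆* cells (log2 ratio 1.12), against 1026 in *upf1∆* and 292 in WT cells (1.81). Its first ORF has 3 codons. A weaker, in-frame start had 20 in *upf1∆set2∆* and 6 in *set2∆* cells (1.58), so an in-frame ATG did not always go with a small ratio. The mRNA-TSSC of this gene was also higher, with 287 in *upf1∆set2∆* and 72 in *set2∆* cells (1.98).

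*FLO8*, a transcription factor gene for flocculation, and *STE11*, a MAP kinase kinase kinase gene of the mating pathway, are known to give internal starts when chromatin is disturbed, and both had few such reads where Set2 was present. The *FLO8* B-TSSC at chrV:375904-375962 had 86 in *upf1∆set2∆* and 26 in *set2∆* cells (log2 ratio 1.69) and was listed at 0 in *upf1∆* and WT cells. The larger one at chrV:376342-376623 had 223 in *upf1∆set2∆* and 127 in *set2∆* cells (0.81), against 5 in *upf1∆* and 6 in WT cells. Both open out of frame, with 6 and 7 codons. *STE11* had 1 higher B-TSSC, out of frame at chrXII:850486-850548, with 21 in *upf1∆set2∆* and 8 in *set2∆* cells (1.29). Its more abundant internal starts were within 2-fold: the in-frame B-TSSC at chrXII:851508-851606 had 68 in *upf1∆set2∆* and 81 in *set2∆* cells (-0.25), and another in-frame one at chrXII:850613-850786 had 85 in *upf1∆set2∆* and 66 in *set2∆* cells (0.36). The latter is in frame only as read from its downstream end, since an out-of-frame ATG at chrXII:850632 lies inside it. An abundant out-of-frame start near the end of *STE11*, whose first ORF stops 461 nt before the transcript end, had 77 in *upf1∆set2∆* and 75 in *set2∆* cells (0.04).

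**Figure D4:**
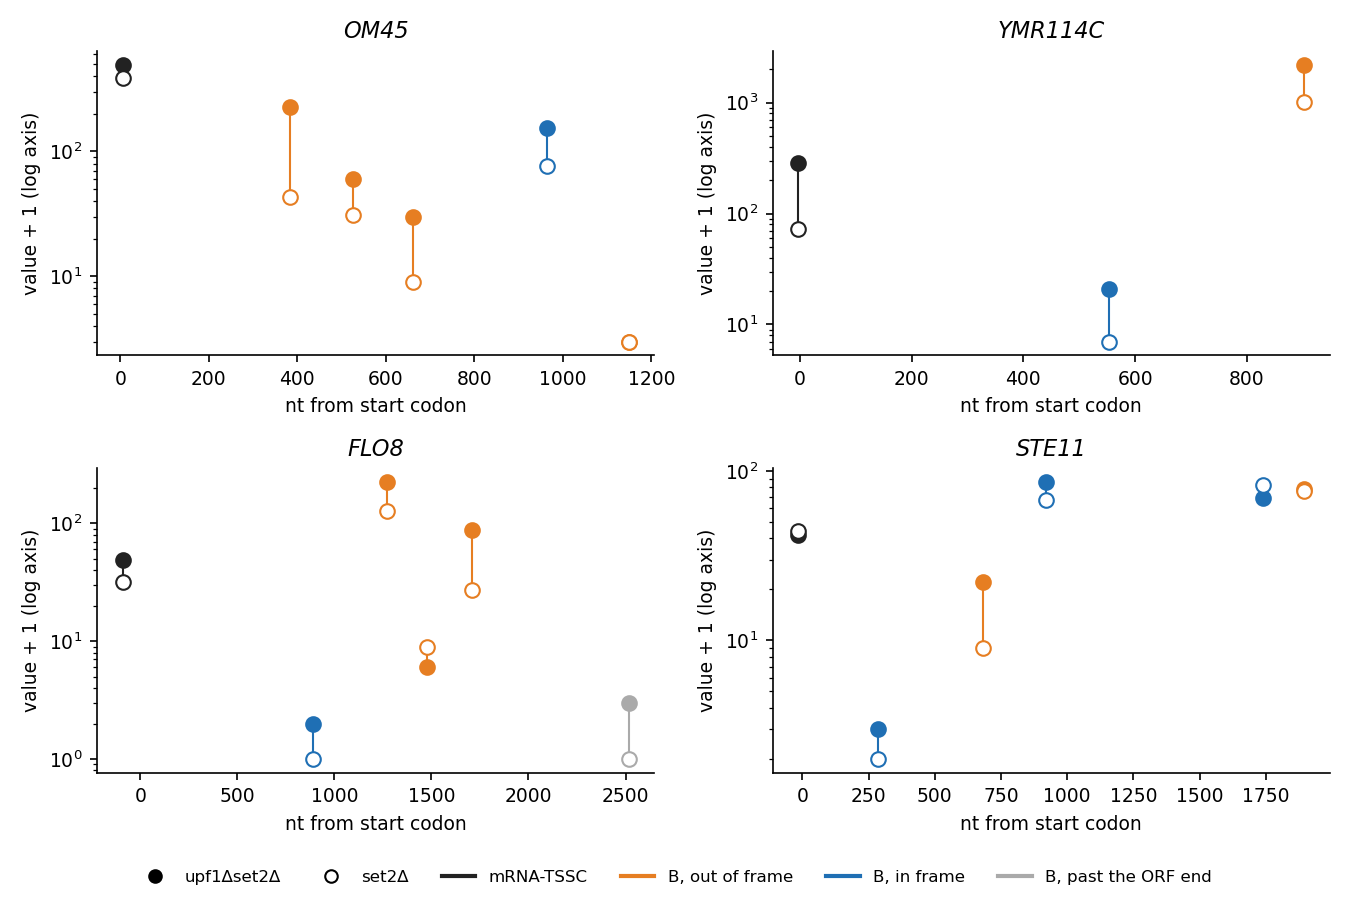
Value plus 1 (y axis, log scale) of each mRNA- and B-TSSC of *OM45*, *YMR114C*, *FLO8* and *STE11* against its distance in nt from the start codon (x axis), in *upf1∆set2∆* (filled) and *set2∆* (open) cells, coloured by the frame of the first ATG from the downstream end of the TSSC. The strongest *OM45* responder has 224 in *upf1∆set2∆* and 42 in *set2∆* cells, while the in-frame *STE11* starts have 85 in *upf1∆set2∆* and 66 in *set2∆* cells and 68 in *upf1∆set2∆* and 81 in *set2∆* cells.

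Over the 15 genes with known internal initiation, 26 of 59 B-TSSCs were higher in *upf1∆set2∆* cells (44.1%, median 1.00), against 40.6% of all B-TSSCs, and 10 of 59 were higher in *upf1∆* over WT. *SMC3*, a cohesin subunit gene, had 24 in *upf1∆set2∆* and 2 in *set2∆* cells at 1 start and 25 in *upf1∆set2∆* and 3 in *set2∆* cells at another. *OMS1*, a gene for a mitochondrial membrane protein, had 234 in *upf1∆set2∆* and 35 in *set2∆* cells (2.71) and *PCA1*, a metal transporter gene, 56 in *upf1∆set2∆* and 7 in *set2∆* cells (2.83), both out of frame. *VPS72*, which encodes a subunit of the SWR1 chromatin remodeller, had 62 in *upf1∆set2∆* and 16 in *set2∆* cells (1.89). The in-frame start of *SPB4*, an RNA helicase gene, had 433 in *upf1∆set2∆* and 356 in *set2∆* cells (0.28), the largest *upf1∆set2∆* value of this list outside *YMR114C* and yet its ratio was well within 2-fold.

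Among B-TSSCs with a mean of at least 20, the largest ratios belonged to 3 that the table assigns to no single gene: chrVIII:394386-394475, next to YHR148W, with 71 in *upf1∆set2∆* and 3 in *set2∆* cells, chrXVI:624332-624416, next to YPR028W, with 50 in *upf1∆set2∆* and 2 in *set2∆* cells, and chrIV:1453064-1453093, next to YDR501W, with 44 in *upf1∆set2∆* and 2 in *set2∆* cells. With *set2∆* values this low, their ratios of 4.17, 4.09 and 3.91 rest on few reads. Among those whose first ATG has a known frame, *ALR2*, a magnesium transporter gene, had 43 in *upf1∆set2∆* and 2 in *set2∆* cells (3.87), and *RAD4*, a gene of nucleotide excision repair, had 198 in *upf1∆set2∆* and 13 in *set2∆* cells (3.83) at a start whose first ORF has 7 codons and ends 895 nt before the transcript end. The largest in-frame ratios were those of *HUT1*, a sugar nucleotide transporter gene, with 99 in *upf1∆set2∆* and 15 in *set2∆* cells (2.64), and of *LIF1*, a gene of DNA end joining, with 593 in *upf1∆set2∆* and 95 in *set2∆* cells (2.63). The lowest B-TSSCs with a mean of at least 20 were in *SPL2*, a regulator of phosphate uptake, with 17 in *upf1∆set2∆* and 72 in *set2∆* cells (-2.02), and *SIM1*, a cell wall protein gene, with 122 in *upf1∆set2∆* and 316 in *set2∆* cells (-1.37). Both were also lower where Set2 was present, with 16 in *upf1∆* and 50 in WT cells for *SPL2* and 62 in *upf1∆* and 184 in WT cells for *SIM1*.

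Among A-TSSCs with a mean of at least 20, the largest ratio was antisense to *GSY2*, a glycogen synthase gene. It had 60 in *upf1∆set2∆* and 2 in *set2∆* cells. Next came a TSSC antisense to *LAA1*, which acts in vesicle traffic, with 85 in *upf1∆set2∆* and 4 in *set2∆* cells (4.10). The third, at chrV:207515-207588, next to YER026C, had 48 in *upf1∆set2∆* and 2 in *set2∆* cells. The *LAA1* start was listed at 0 in both *upf1∆* and WT cells, whereas that of *GSY2* had 33 in *upf1∆* and 1 in WT cells. The 2 lowest A-TSSCs with a mean of at least 20 were antisense to YNL277W-A, with 38 in *upf1∆set2∆* and 70 in *set2∆* cells (-0.86), and at chrXV:720312-720385, with 19 in *upf1∆set2∆* and 35 in *set2∆* cells (-0.85). Neither was beyond 2-fold, whereas 11 of all A-TSSCs were lower.

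Of the XUT-TSSCs, 767 were higher in both backgrounds, and of the SUT-TSSCs, 157. *XUT_15R-4* had 59 in *upf1∆set2∆* and 1 in *set2∆* cells, against 114 in *upf1∆* and 5 in WT cells. *XUT_4F-395* had 162 in *upf1∆set2∆* and 7 in *set2∆* cells (log2 ratio 4.35), and 183 in *upf1∆* and 7 in WT cells. *XUT_15R-219* had 126 in *upf1∆set2∆* and 7 in *set2∆* cells (3.99), and 123 in *upf1∆* and 5 in WT cells. All 3 were strongly higher in both backgrounds. *SUT324* had 267 in *upf1∆set2∆* and 12 in *set2∆* cells (4.37) although its first ORF stops only 29 nt before the transcript end, which sets it apart from the trend with length. *SUT464*, whose first ORF has 3 codons, had 97 in *upf1∆set2∆* and 6 in *set2∆* cells (3.81), and *SUT023* had 107 in *upf1∆set2∆* and 7 in *set2∆* cells (3.75). The lowest XUT-TSSC with a mean of at least 20, *XUT_8F-165*, had 14 in *upf1∆set2∆* and 39 in *set2∆* cells (-1.42), and 2 in *upf1∆* and 16 in WT cells. The lowest SUT-TSSCs with such a mean, *SUT153* with 62 in *upf1∆set2∆* and 113 in *set2∆* cells (-0.86) and *SUT487* with 18 in *upf1∆set2∆* and 32 in *set2∆* cells (-0.80), did not pass 2-fold.

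*CUT_GIM_1111* had 82 in *upf1∆set2∆* and 4 in *set2∆* cells (4.05), and 88 in *upf1∆* and 8 in WT cells. *CUT478* behaved otherwise: it had 328 in *upf1∆set2∆* and 23 in *set2∆* cells (3.78) but 6 in *upf1∆* and 1 in WT cells, so that nearly all of its signal was in cells lacking Set2. The third, on the joint CUT annotation at chrXV:522523-522659, had 170 in *upf1∆set2∆* and 12 in *set2∆* cells (3.72), and 211 in *upf1∆* and 17 in WT cells. At the low end of the CUT-TSSCs with a mean of at least 20, the TSSC at chrIV:506398-506422 had 19 in *upf1∆set2∆* and 42 in *set2∆* cells (-1.10), and *CUT_GIM_0172* had 20 in *upf1∆set2∆* and 41 in *set2∆* cells, just at the 2-fold limit. Among intergenic TSSCs with a mean of at least 20, the largest ratio was that of the TSSC between YBL082C and YBL081W, with 206 in *upf1∆set2∆* and 7 in *set2∆* cells (4.69). Next were the TSSC between YGL189C and YGL187C, with 170 in *upf1∆set2∆* and 6 in *set2∆* cells (4.61), and the one between YGL263W and YGL262W, with 69 in *upf1∆set2∆* and 2 in *set2∆* cells. The first of them had 286 in *upf1∆* and 8 in WT cells, and the second 105 in *upf1∆* and 4 in WT cells. The lowest intergenic TSSC with such a mean, between tK(CUU)G1 and YGL200C, had 34 in *upf1∆set2∆* and 70 in *set2∆* cells (-1.02), and that between YOR065W and YOR066W had 16 in *upf1∆set2∆* and 32 in *set2∆* cells (-0.96).

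For mRNAs, the number of ATGs between the TSSC and the annotated start codon went with the share of higher TSSCs. The count covers only ATGs that follow every position of the TSSC. Of the 2816 mRNA-TSSCs with no upstream ATG, 100 were higher (3.55%, median log2 ratio -0.09). With 1 upstream ATG, 61 of 282 were higher (21.6%, median 0.14), with 2, 51 of 113 (45.1%, median 1.00), and with 3 or more, 214 of 344 (62.2%, median 1.53). In *upf1∆* over WT the shares were 4.58%, 23.4%, 46.9% and 63.7%, so the background with or without Set2 made little difference to this order. TSSCs with more upstream ATGs also lay farther out, at a median of 31 nt for none and 416 nt for 3 or more, and had lower values, with medians of 27 in *upf1∆set2∆* and 8 in *set2∆* cells for 3 or more, against 132 in *upf1∆set2∆* and 131 in *set2∆* cells for none. Within the 171 of those with 3 or more and the 1068 with none whose mean over WT and *upf1∆* was from 10 to 100, 68.4% of those with 3 or more and 4.21% of those with none were higher.

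Another 2167 mRNA-TSSCs reached or lay past the annotated start codon, and 304 of them were higher (14.0%). Read from the 5′-most instead of the 3′-most position of each TSSC, the share was 8.51% for 1 upstream ATG and 17.3% for 2, and 45.9% of the 181 TSSCs wholly past the start codon were higher. The order from 0 to 3 or more was kept, at 4.54% and 49.8% for the ends. The 260 TSSCs of genes with an intron were left out of the count of ATGs (10.8% higher).

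**Figure D5:**
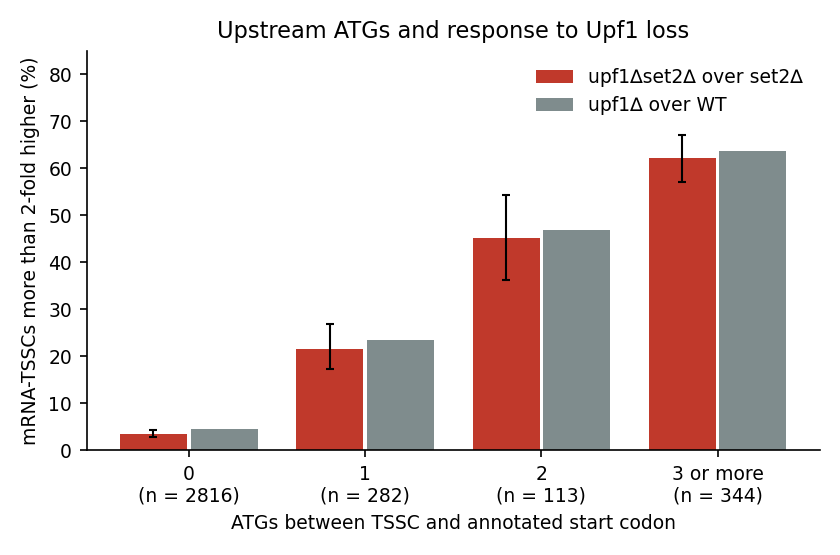
Share of mRNA-TSSCs more than 2-fold higher (y axis, %) by the number of ATGs between the TSSC and the annotated start codon (x axis), in *upf1∆set2∆* over *set2∆* (red, with 95% Wilson intervals over TSSCs) and *upf1∆* over WT (grey). The red bars stand at 3.55%, 21.6%, 45.1% and 62.2%.

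Among mRNA-TSSCs with a mean of at least 20, the largest ratios belonged to TSSCs with upstream ATGs or past the start codon. *TRM13*, a tRNA methyltransferase gene, had 63 in *upf1∆set2∆* and 1 in *set2∆* cells at a TSSC 150 nt upstream with 2 ATGs on the way. *TCA17*, a gene for a subunit of a vesicle tethering complex, had 129 in *upf1∆set2∆* and 6 in *set2∆* cells (log2 ratio 4.22) at a TSSC that runs past its start codon. *DAL7*, a malate synthase gene of allantoin use, had 293 in *upf1∆set2∆* and 21 in *set2∆* cells (3.74) with 2 upstream ATGs. All 3 were likewise higher where Set2 was present: *TRM13* had 116 in *upf1∆* and 4 in WT cells, *TCA17* 107 in *upf1∆* and 9 in WT cells, and *DAL7* 273 in *upf1∆* and 20 in WT cells. The lowest with such a mean were *HO*, the mating type switching endonuclease gene, with 9 in *upf1∆set2∆* and 43 in *set2∆* cells (-2.14), and *RPI1*, a transcriptional regulator gene, with 21 in *upf1∆set2∆* and 87 in *set2∆* cells (-2.00). Neither had an upstream ATG. *HO* had 9 in *upf1∆* and 47 in WT cells, while *RPI1* had 21 in *upf1∆* and 42 in WT cells.

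Known NMD substrates were higher more often than mRNAs at large. Of their 20 mRNA-TSSCs, on 16 of the 17 listed genes, 11 were higher (55.0%, median 1.18), against the 12.7% of all mRNA-TSSCs, and none were lower. By gene, 8 of the 16 had a higher TSSC, against 673 of the 5234 genes with any mRNA-TSSC. *FRE2* alone holds several of the 11, at low values that did not exceed 22 in *upf1∆set2∆* and 7 in *set2∆* cells. *STN1*, which encodes a subunit of the telomere capping complex CST, had 556 in *upf1∆set2∆* and 83 in *set2∆* cells (2.73). Its partner *TEN1* had 90 in *upf1∆set2∆* and 19 in *set2∆* cells (2.19), while the third subunit gene, *CDC13*, had 36 in *upf1∆set2∆* and 46 in *set2∆* cells (-0.35). The telomerase subunit genes *EST3*, with 471 in *upf1∆set2∆* and 143 in *set2∆* cells (1.71), and *EST1*, with 194 in *upf1∆set2∆* and 73 in *set2∆* cells (1.40), were higher, and *EST2* had 11 in *upf1∆set2∆* and 1 in *set2∆* cells. *ALR1*, a magnesium transporter gene, had 145 in *upf1∆set2∆* and 44 in *set2∆* cells (1.70). In cells with Set2, 11 of the same 20 were higher, with 466 in *upf1∆* and 78 in WT cells for *STN1*. Members that stayed within 2-fold include *CTR2*, a copper transporter gene, with 540 in *upf1∆set2∆* and 569 in *set2∆* cells (-0.08), and *CAD1*, a stress transcription factor gene, with 519 in *upf1∆set2∆* and 408 in *set2∆* cells (0.35). Of the 13 mRNA-TSSCs of telomere maintenance genes, 5 were higher (38.5%, median 0.58), and these 5 are the *STN1*, *TEN1* and *EST* TSSCs just given, which both lists share. *RIF1*, a telomere length regulator gene, was listed at 0 in *upf1∆set2∆* cells, with 2 in *set2∆* cells.

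Genes with a studied upstream ORF were not among the higher ones. None of their 27 mRNA-TSSCs, on 23 of 24 genes, were beyond 2-fold (median 0.00), against 12.7% higher among all mRNA-TSSCs, and 1 was with a pseudocount of 0.1. Many of these TSSCs had no upstream ATG by the count used above, such as those of *ARV1*, *CLN3* and *YAP1*. Others, such as those of *DCD1* and *SCO1*, reached past the start codon. The list therefore does not show how RNAs that carry an upstream ORF respond. *CAD1*, *PPR1* and *UBP7* are also on the list of known NMD substrates. In cells with Set2, 2 of the 27 were higher: *RCK1*, a protein kinase gene, had 52 in *upf1∆* and 11 in WT cells (2.14), against a ratio of 0.78 without Set2, and a TSSC of *LEU4*, a leucine synthesis gene, had 4 in *upf1∆* cells and was listed at 0 in WT cells. *GCN4*, the activator of amino acid synthesis whose upstream ORFs control its translation, had 3910 in *upf1∆set2∆* and 3676 in *set2∆* cells (0.09), and *HAP4*, a respiration regulator gene, had 667 in *upf1∆set2∆* and 895 in *set2∆* cells (-0.42). Pyrimidine synthesis genes had none of 9 higher either, a small number to set against that 12.7%, and *URA1*, for dihydroorotate dehydrogenase, came near, with a log2 ratio of 0.96 without Set2 and of 0.94 in *upf1∆* over WT (3486 in *upf1∆* and 1811 in WT cells).

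Among the 19 mRNA-TSSCs of NMD and 5′-to-3′ decay factors, 2 were higher (10.5%, median -0.12), near the 12.7% of all mRNA-TSSCs. They were *NMD4*, whose product binds Upf1, with 151 in *upf1∆set2∆* and 36 in *set2∆* cells (2.04), and *EBS1*, a relative of *EST1*, with 282 in *upf1∆set2∆* and 100 in *set2∆* cells (1.49). *UPF3* had 104 in *upf1∆set2∆* and 77 in *set2∆* cells (0.43) and the decapping gene *DCP2* had 43 in *upf1∆set2∆* and 47 in *set2∆* cells (-0.13). Of the 23 of the Set2 pathway and histone chaperones, 3 were higher (13.0%, median 0.07), again near 12.7%, and 2 of them had low values. *RCO1*, a subunit gene of Rpd3S, had 135 in *upf1∆set2∆* and 36 in *set2∆* cells (1.88) at a TSSC 801 nt upstream with 3 or more ATGs, 10 in *upf1∆set2∆* and 4 in *set2∆* cells at its start codon, and 38 in *upf1∆set2∆* and 33 in *set2∆* cells (0.20) in between. *CHD1*, a chromatin remodeller gene, had 7 in *upf1∆set2∆* and 1 in *set2∆* cells. With a pseudocount of 0.1, 5 of the 23 were higher. Chaperone genes such as *SPT6*, with 966 in *upf1∆set2∆* and 1054 in *set2∆* cells (-0.13), and *SPT16*, with 63 in *upf1∆set2∆* and 91 in *set2∆* cells (-0.52), were within 2-fold. B-TSSCs inside genes of this list were higher in 18 of 43 cases (41.9%), near the 40.6% of all B-TSSCs.

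The most abundant mRNAs had ratios slightly below 0. By the mean of WT and *upf1∆*, which the ratio does not use, the median log2 ratio was 0.36 below 10, 0.14 from 10 to 100, 0.02 from 100 to 1000 and -0.19 at 1000 or more, and the share of higher TSSCs was 25.7%, 15.8%, 9.30% and 1.97%. None of the 17 mRNA-TSSCs of glycolytic genes were beyond 2-fold, and their median was -0.32. *TDH3*, for glyceraldehyde-3-phosphate dehydrogenase, had 22916 in *upf1∆set2∆* and 31081 in *set2∆* cells (-0.44), against 32518 in *upf1∆* and 24703 in WT cells (0.40), so the sign was opposite in the 2 backgrounds. *PGK1*, for phosphoglycerate kinase, had 11918 in *upf1∆set2∆* and 14224 in *set2∆* cells (-0.26), against 14166 in *upf1∆* and 11829 in WT cells (0.26). *ACT1*, the actin gene, had 14490 in *upf1∆set2∆* and 16938 in *set2∆* cells (-0.23), against 17697 in *upf1∆* and 16657 in WT cells (0.09). Both ratios of *TDH3* exceeded the SD of 0.12 that separate libraries gave at this level. That SD comes from cells with Set2 and leaves out any shift that abundant mRNAs share, so it cannot gauge the opposite signs. Centring all ratios on the mRNA median of 0.04 left the shares of every class within their intervals.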

How the data were processed

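RNA 5′-ends were sequenced from *upf1∆set2∆*, *set2∆*, *upf1∆* and WT yeast with 3 libraries per genotype, as given by the labels. The authors aligned reads with Bowtie2 to the R64 genome, grouped 5′-ends into TSSCs over the 12 libraries of the experiment, filtered them on a TAP control, and normalized reads per TSSC with DESeq2 to reads starting just upstream of ORFs. The score values deposited by the authors are these normalized reads, rounded to whole numbers, with 1 value per genotype and TSSC. That the value is a mean over libraries was inferred. The tables also hold the authors' log2 fold changes and p-values, which were not used. The depth of each library does not enter these values separately, so the precision of a value was taken from *upf1∆* over WT in the 2 experiments, over same-strand TSSCs sharing 1 nt or more.

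Log2 ratios used a pseudocount of 1. No test was made. Sequences came from the R64 reference (ATG found at 5206 of the 5229 annotated ORF starts), and 4 TSSCs outside the nuclear chromosomes were left out of them. Start clusters lying in genes with an intron were not given a frame. Named TSSCs are, per class, the 3 largest and 2 lowest ratios among those with a mean of at least 20 over *upf1∆set2∆* and *set2∆*, the deleted genes, *ACT1*, the internal starts of *OM45* and *YMR114C*, and members of gene lists. *ALR2*, *RAD4*, *HUT1* and *LIF1* were named outside this rule, after their values were seen, as the 2 largest out-of-frame and in-frame ratios, and the RNAs of the closing observations likewise. Members and lists were chosen with earlier results of these data known, and the lengths after the stop codon for B-TSSCs and the split at a mean of 20 were added after the values were seen. *CPA1* is the listed NMD substrate not analysed here. The counting was tested on simulated data, and Python 3.11.15, pandas 2.3.3, numpy 2.4.6, scipy 1.17.1 and matplotlib 3.10.9 were used. The alternatives tried were pseudocounts of 0.1 and 5, a mean of at least 10 over 4 genotypes or over WT and *upf1∆*, centring on mRNAs, reading from the 5′-most position, and a reciprocal overlap of 50%.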

Additional observations from a re-analysis of the deposited data

How the results depend on the processing

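No paired analysis was possible because each genotype has 1 pooled value, so neither the fit with the replicate number as a block nor leaving out a library was run. No share or ratio changed its direction, but the order of the classes did. With a pseudocount of 0.1 the share of higher TSSCs was 43.2% over all TSSCs, 71.6% for A-, 48.4% for B-, 67.2% for XUT-, 61.4% for SUT-, 55.1% for intergenic, 42.4% for CUT- and 13.8% for mRNA-TSSCs. With 5 it was 21.3% over all, 29.7% for A-, 22.7% for B-, 40.5% for XUT-, 36.5% for SUT-, 24.2% for intergenic, 20.9% for CUT- and 9.77% for mRNA-TSSCs, so that A-TSSCs stood below XUT- and SUT-TSSCs. Where the 4 genotypes averaged 10 or more it was 30.9% over all, 75.3% for A-, 43.4% for B-, 68.8% for XUT-, 51.6% for intergenic, 43.2% for CUT- and 11.2% for mRNA-TSSCs. With a mean of at least 10 over WT and *upf1∆* it was 26.9% over all, 72.8% for A-, 67.6% for XUT-, 59.5% for SUT-, 52.6% for intergenic, 42.7% for CUT- and 11.2% for mRNA-TSSCs. Under this last filter the share was 67.6% with 3 or more upstream ATGs and 12.6% for mRNA-TSSCs that reach the start codon, 20.1% for in-frame B-TSSCs, 48.7% and 79.4% for XUT- and SUT-TSSCs with under 400 nt and with 400 nt or more after the first stop codon, 56.5% for B-TSSCs of the first part of the ORF, and 69.6% and 79.5% for A-TSSCs of its first and last part. Read from the 5′-most position, the shares were 4.54%, 8.51%, 17.3% and 49.8% for 0, 1, 2 and 3 or more upstream ATGs, 45.9% for TSSCs past the start codon and 17.5% for in-frame B-TSSCs. With a mean of at least 20 over *upf1∆set2∆* and *set2∆*, chosen after seeing the data and built from the values of the ratio itself, the lengths under 400 nt and of 400 nt or more gave 49.4% and 80.6% for XUT- and SUT-TSSCs, and 67.4% at 400 nt or more for out-of-frame B-TSSCs. The share of TSSCs with an Upf1 ratio larger by over 1 in the *set2∆* background was, with a pseudocount of 0.1, 41.9% for A-, 29.9% for B-, 11.6% for CUT-, 13.6% for XUT-, 14.2% for intergenic and 2.82% for mRNA-TSSCs, and with a mean of at least 10 over 4 genotypes (which includes *upf1∆set2∆*, so that starts near 0 elsewhere pass through it) 23.7%, 17.7%, 1.54%, 2.75%, 2.31% and 0.730% in that order and 1.46% for SUT-TSSCs. A reciprocal overlap of 50% gave an SD of 0.22 for 1 ratio. With a pseudocount of 0.1, 1 mRNA-TSSC of genes with an upstream ORF and 5 of the Set2 pathway were higher. Of the 371 single TSSCs, 75 moved by more than the SD of 1 ratio with this pseudocount, each away from 0. The low values of many TSSCs set how far the pseudocount moved a share, and the cause of the other changes was not tested.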

Other observations

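The TSSCs on stable noncoding RNAs and repeats entered the totals but were not described as a class. Of these 325 TSSCs, 28 were higher in *upf1∆set2∆* than in *set2∆* cells (8.62%, median log2 ratio 0.00) and 6 were lower, against 45 higher in *upf1∆* than in WT cells (13.8%). On 246 long terminal repeats of Ty elements 23 were higher (9.35%). The largest with a mean of at least 20 over *upf1∆set2∆* and *set2∆* was YPLWdelta6, with 44 in *upf1∆set2∆* and 6 in *set2∆* cells, against 100 in *upf1∆* and 9 in WT cells. It was followed by YLRWdelta4 with 113 in *upf1∆set2∆* and 21 in *set2∆* cells. These repeats have near-identical copies, so reads may be shared between them and single values are uncertain.

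On 31 small nuclear and nucleolar RNAs only *SNR59* was higher, with 80 in *upf1∆set2∆* and 33 in *set2∆* cells, and their median log2 ratio was -0.24. *LSR1*, the U2 RNA, had 1881 in *upf1∆set2∆* and 1917 in *set2∆* cells. *SNR19*, the U1 RNA, had 200 in *upf1∆set2∆* and 352 in *set2∆* cells (-0.81), against 270 in *upf1∆* and 255 in WT cells. Of the 44 TSSCs on tRNA genes 4 were higher and 5 lower, with medians of 2 in *upf1∆set2∆* and 4 in *set2∆* cells.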
